A study of Mus musculus with 8 samples.

Results

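The genes described here encode the subunits of the proteasome, its regulators and the chaperones that assemble it. They were taken by symbol, as the protein-coding genes of the GENCODE M21 annotation of the mm10 mouse genome named Psm, then a letter from a to g, then digits, which gave 48 of 21951 protein-coding genes. The data were H3K27ac ChIP-seq regions from mouse primary hepatocytes (MPH) of C57Bl6 wild-type adult males, kept for 4 h in serum-free medium with 1 µM thapsigargin or with the vehicle, 0.04% DMSO. Thapsigargin blocks the calcium pump of the endoplasmic reticulum (ER) and thereby causes ER stress (ERS), and H3K27ac is a histone mark of active promoters and enhancers. Each treatment had 3 H3K27ac libraries from independent cell preparations and 1 input library, 8 libraries in all, and the authors sorted the regions of both treatments into H3K27ac UP (higher after thapsigargin), H3K27ac DOWN (lower) and unchanged, where unchanged means that a region did not pass their FDR of 0.05, not that its signal was shown to be equal.

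Proteins tagged with ubiquitin are degraded by the 26S proteasome, in which a barrel of alpha and beta subunits, the 20S core, is closed at its ends by 19S caps that bind ubiquitin, unfold the substrate with a ring of ATPases and feed it into the barrel. Cells exposed to interferon replace the catalytic beta subunits by immunoproteasome counterparts, other caps such as PA28 and PA200 can take the place of the 19S cap, and dedicated chaperones build the core and the base of the cap. In the liver, as elsewhere, ER proteins that fail to fold are returned to the cytosol and degraded by the proteasome, and the transcription factor NFE2L1, itself anchored in the ER membrane, raises the transcription of proteasome subunit genes when proteasome activity is short.

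A gene took the class of each region that overlapped one of its annotated transcription start sites (TSSs). Of the 48 genes, 45 had a TSS in a region, whereas 44.7% of all protein-coding genes had one (9820 of 21951). At least 1 TSS of each of 5 proteasome genes, Psma5, Psmc2, Psmd5, Psme3 and Psmg3, lay in an H3K27ac UP region. Psmd10 and Psmd13 had TSSs in H3K27ac DOWN regions. The UP regions held 1 of 2 transcript starts of Psma5 and of Psmc2, 2 of 5 of Psmd5 and of Psme3, and 3 of 3 of Psmg3. The DOWN regions held 2 of 2 of Psmd10 and 8 of 11 of Psmd13. The promoters of these 7 genes are printed first, since their starts lay in the regions called changed, although a call covers a whole region and not these bases in particular. They are RefSeq promoter sequences of GRCm38.p6, the assembly also called mm10, from 250 bp before to 50 bp after the start, 5′ to 3′ on the strand of the gene, and capitals mark the words of transcription factor motifs described further on.

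The promoters with their start in H3K27ac UP regions were those of Psma5 (chr3:108256676-108256975, plus strand), Psmc2 (chr5:21785025-21785324, plus strand), Psmd5 (chr2:34870913-34871212, minus strand), Psme3 (chr11:101315963-101316262, plus strand) and Psmg3 (chr5:139826845-139827144, minus strand). The UP region covered all 300 bp of each, except for Psmg3, where it covered 155 bp.
Psma5: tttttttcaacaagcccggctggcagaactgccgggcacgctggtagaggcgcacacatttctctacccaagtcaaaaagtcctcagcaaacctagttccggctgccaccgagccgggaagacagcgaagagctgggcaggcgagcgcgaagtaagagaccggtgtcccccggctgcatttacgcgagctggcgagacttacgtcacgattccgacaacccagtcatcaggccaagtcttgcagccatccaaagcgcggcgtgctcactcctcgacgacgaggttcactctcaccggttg
Psmc2: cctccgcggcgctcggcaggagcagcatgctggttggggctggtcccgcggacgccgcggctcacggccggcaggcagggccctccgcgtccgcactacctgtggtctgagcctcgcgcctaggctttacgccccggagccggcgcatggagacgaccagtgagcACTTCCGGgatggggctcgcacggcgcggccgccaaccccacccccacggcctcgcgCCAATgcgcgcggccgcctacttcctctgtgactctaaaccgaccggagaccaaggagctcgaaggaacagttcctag
Psmd5: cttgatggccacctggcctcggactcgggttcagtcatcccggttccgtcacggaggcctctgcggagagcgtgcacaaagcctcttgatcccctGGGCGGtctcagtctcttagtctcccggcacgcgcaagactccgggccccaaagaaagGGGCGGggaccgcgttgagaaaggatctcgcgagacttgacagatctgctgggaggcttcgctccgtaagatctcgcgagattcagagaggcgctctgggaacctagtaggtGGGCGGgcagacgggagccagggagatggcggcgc
Psme3: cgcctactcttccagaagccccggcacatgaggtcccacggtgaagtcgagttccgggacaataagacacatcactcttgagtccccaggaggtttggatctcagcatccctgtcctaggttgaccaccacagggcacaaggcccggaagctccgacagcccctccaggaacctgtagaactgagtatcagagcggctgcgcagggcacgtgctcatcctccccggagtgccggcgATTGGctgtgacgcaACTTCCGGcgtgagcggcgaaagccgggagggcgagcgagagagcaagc
Psmg3: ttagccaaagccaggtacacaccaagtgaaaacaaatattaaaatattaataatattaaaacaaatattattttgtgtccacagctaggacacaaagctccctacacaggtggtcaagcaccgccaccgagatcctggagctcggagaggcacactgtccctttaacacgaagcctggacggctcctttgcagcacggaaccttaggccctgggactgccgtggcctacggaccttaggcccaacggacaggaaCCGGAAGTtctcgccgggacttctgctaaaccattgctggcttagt

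The promoters with their start in H3K27ac DOWN regions, which covered them whole, were those of Psmd10 (chrX:140956662-140956961, minus strand) and Psmd13 (chr7:140882144-140882443, plus strand).
Psmd10: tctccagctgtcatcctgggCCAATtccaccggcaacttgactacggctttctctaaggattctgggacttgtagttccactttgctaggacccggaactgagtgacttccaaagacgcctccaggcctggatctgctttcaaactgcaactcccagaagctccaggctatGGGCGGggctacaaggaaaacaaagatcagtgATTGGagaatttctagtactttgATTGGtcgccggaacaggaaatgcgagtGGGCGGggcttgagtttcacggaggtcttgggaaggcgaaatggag
Psmd13: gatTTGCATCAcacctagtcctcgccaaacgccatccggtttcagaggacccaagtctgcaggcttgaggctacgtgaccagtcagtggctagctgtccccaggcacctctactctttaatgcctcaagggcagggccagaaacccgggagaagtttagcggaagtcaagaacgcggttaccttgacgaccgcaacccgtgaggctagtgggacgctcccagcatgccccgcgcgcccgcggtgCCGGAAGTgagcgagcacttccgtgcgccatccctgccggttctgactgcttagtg

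The files give where each region starts and ends and its class, with no signal, count or p-value. Thus, no value per library and no error between the 3 experiments can be given here, and the depth behind a class is unknown. The counts below therefore stand beside those of all protein-coding genes with a TSS in a region, as a description and without a test, and genes are not replicates of the treatment. The labelled cell type was checked against markers, and all 8 hepatocyte markers had a TSS in a region, whereas 1 of 4 leukocyte markers (Cd68), 1 of 3 endothelial markers (Stab2), 1 of 3 cholangiocyte markers (Sox9) and 0 of 3 stellate cell markers had one. Other cell types in the preparations were not further tested.

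Most proteasome genes were at unchanged regions, and the shares at changed regions were numerically below those of protein-coding genes. The 5 genes at H3K27ac UP regions were 11.1% of the 45 with a region, beside 21.6% of the 9820 protein-coding genes, and the 2 at H3K27ac DOWN regions were 4.44%, beside 8.33%. A changed region of either class was found for 7 genes, or 15.6%, beside 29.6% of the protein-coding genes. The other 38 genes, 84.4%, had unchanged regions alone, whereas 70.4% of the protein-coding genes did. The shares at changed regions rest on only 5 and 2 of 45 genes, and whether they differ from the background was not tested.

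**Figure D1:**
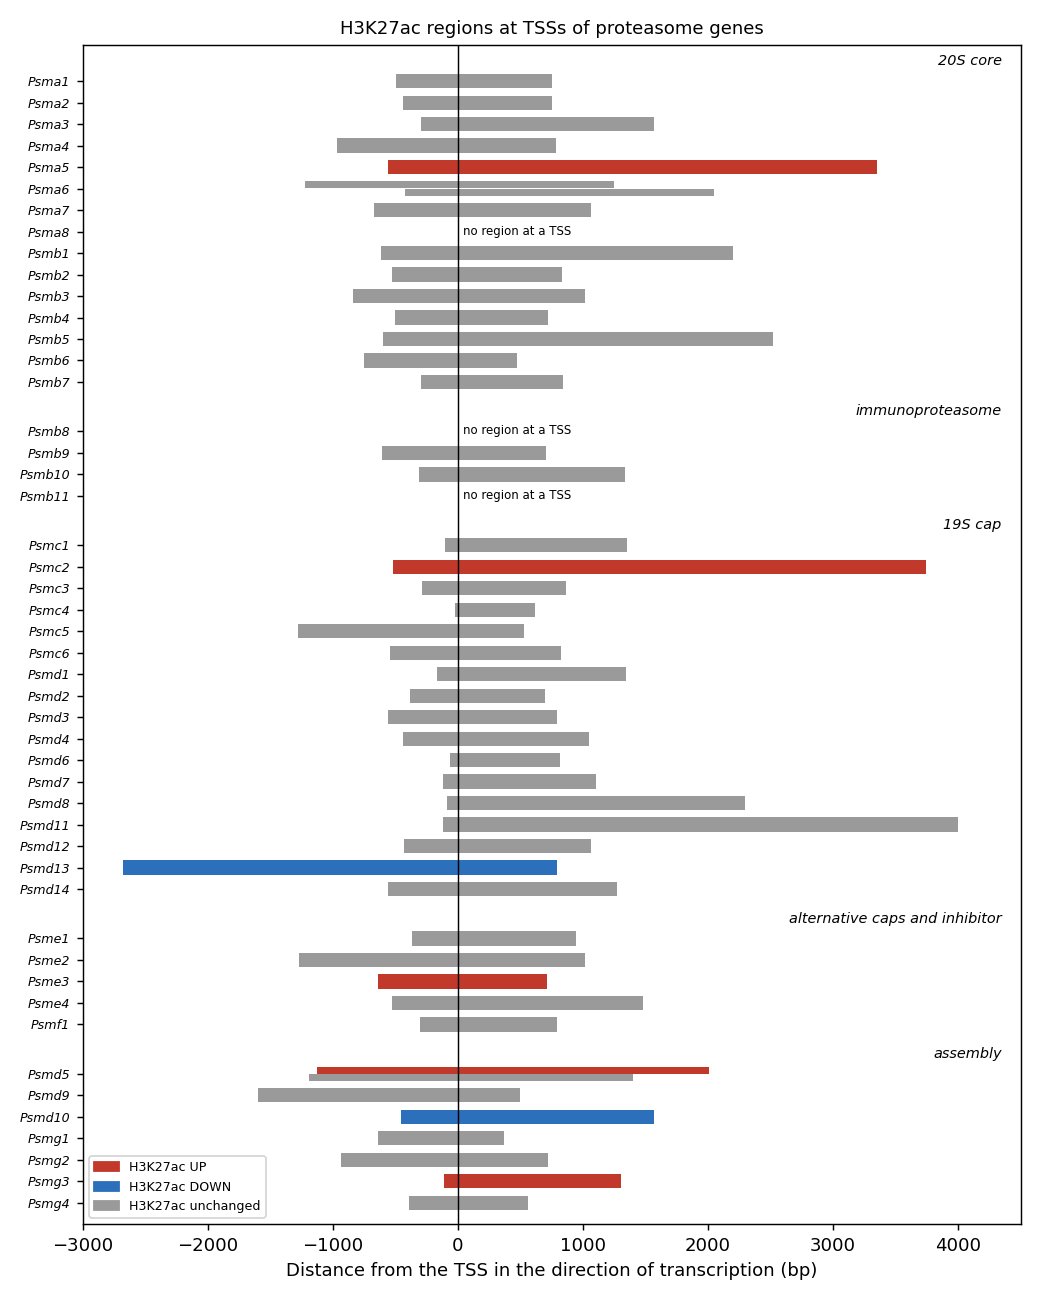
Horizontal bars show each H3K27ac region at a TSS of the 48 proteasome genes, placed by distance in bp from the first TSS inside the region in the direction of transcription, with H3K27ac UP in red, DOWN in blue and unchanged in grey. Most of the 47 regions are grey and lie close around the TSS, the UP regions of Psma5 and Psmc2 reach over 3 kb into the gene, the DOWN region of Psmd13 extends upstream, and Psma8, Psmb8 and Psmb11 have no bar.

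The 20S core had 1 changed gene. Of its 15 genes, 14 had a TSS in a region, 1 of them in an H3K27ac UP region (7.14%) and 0 in a DOWN region. The exception was Psma5, which encodes the alpha 5 subunit of the outer ring. Its region was 3914 bp wide (chr3:108256368-108260281) and reached 558 bp upstream and 3355 bp downstream of the TSS, so that most of it lay in the transcribed gene. The antisense gene 1700010K24Rik had a TSS in the same region, whereas no other protein-coding gene did.

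The other alpha subunit genes expressed outside the testis, Psma1 to Psma4, Psma6 and Psma7, all had unchanged regions, with widths from 1193 bp for Psma2 to 2474 bp for Psma6. Psma6 had TSSs in a pair of regions, 2474 bp and 2473 bp wide, both unchanged, and only the first held the TSS of a protein-coding transcript. Psma8, a variant alpha subunit of the testis, had no region at a TSS, and the nearest region, at Ss18, was 22755 bp away.

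All 7 constitutive beta subunit genes, Psmb1 to Psmb7, had unchanged regions. Psmb5, Psmb6 and Psmb7 encode the subunits with catalytic activity, and their regions were 3121 bp, 1228 bp and 1136 bp wide. The Psmb5 region (chr14:54615503-54618623) was thus the widest of the 3 and, after that of Psmd11, the widest unchanged region at a proteasome gene. Psmb1, which encodes a structural subunit of the beta ring, came next with 2818 bp, and this region also held the TSS of Tbp on the opposite strand. Neither the catalytic nor the structural beta genes were thus at a region called changed.

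Immunoproteasome genes were split between genes with and without a region at a TSS, and lack of a region does not show that the mark was absent. Psmb9, which replaces Psmb6, had an unchanged region of 1311 bp (chr17:34187062-34188372) that it shared with Tap1, a peptide transporter gene transcribed in the opposite direction. Psmb10, which replaces Psmb7, had an unchanged region of 1650 bp (chr8:105937108-105938757). Psmb8, which replaces Psmb5, had no region at a TSS, and the nearest one, an unchanged region at Tap2, was 5099 bp away. Psmb11, the beta subunit of the thymoproteasome and counted with this group, had none either, the nearest being the Psmb5 region at 2810 bp. Hence 2 of 4 genes had a region, and none of the 4 had an H3K27ac UP or DOWN region at a TSS.

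All 17 genes with a Psm symbol counted with the 19S cap had a TSS in a region, 1 in an H3K27ac UP and 1 in an H3K27ac DOWN region (5.88% each). Adrm1, a gene of the cap without such a symbol, is given further on with the other pathway genes. Among the 6 Psmc genes, which encode the ATPases of the base, Psmc2 was at an H3K27ac UP region of 4263 bp (chr5:21784762-21789024), the widest region at any proteasome gene. It reached 521 bp upstream and 3741 bp downstream of the TSS. The same region held the TSS of Dnajc2, which encodes a ribosome-associated chaperone and starts on the opposite strand, and with 1 class per region the genes of the pair cannot be told apart. The other Psmc genes had unchanged regions, of which that of Psmc4 was the narrowest at any proteasome gene (646 bp). It began 25 bp upstream of the first TSS inside it, and the 5′ end of the Psmc4 gene record lay outside it.

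Of the 11 Psmd genes counted with the cap, Psmd13 alone was at a changed region. Psmd13 encodes a subunit of the lid, the part of the cap that holds the deubiquitinating enzyme, and its H3K27ac DOWN region (chr7:140879289-140882759) was 3471 bp wide. In contrast to Psma5 and Psmc2, the region lay mainly upstream of the first TSS inside it, with 2679 bp upstream and 791 bp downstream. The upstream stretch lies within Sirt3, a mitochondrial deacetylase gene that starts in the same region and runs in the opposite direction, and the genes of this pair cannot be told apart either. The deubiquitinase gene itself, Psmd14, had an unchanged region of 1832 bp.

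Among the unchanged cap genes, Psmd11, another gene of the lid, had the widest region (4115 bp), which reached 3997 bp downstream of the TSS. Psmd6, also of the lid, had a narrow one (883 bp). Regions of similar width and placement were thus called UP at Psma5 and Psmc2 and unchanged at Psmd11.

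Genes of the alternative caps and of the inhibitor PI31 had 5 of 5 with a region and 1 changed. Psme3, which encodes PA28 gamma, a cap found in the nucleus, was at an H3K27ac UP region of 1357 bp (chr11:101315572-101316928), the narrowest of the changed regions, with 641 bp upstream and 715 bp downstream of the TSS. No other gene had a TSS in it. Psme1 and Psme2, which encode the interferon-responsive PA28 subunits, had unchanged regions of 1306 bp and 2283 bp. Psme4, which encodes PA200, and Psmf1, which encodes PI31, had unchanged regions of 2005 bp and 1093 bp.

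The assembly chaperones held 3 of the 7 changed genes. All 7 assembly genes with a Psm symbol, which leaves out Pomp, had a region. Of them, 2 had an H3K27ac UP region (28.6%, beside 21.6% of protein-coding genes) and 1 an H3K27ac DOWN region (14.3%, beside 8.33%), which with so few genes is near the background. Of the 4 Psmg genes, whose products pair up to build the alpha ring of the core, Psmg3 was at an H3K27ac UP region of 1420 bp (chr5:139825580-139826999), whereas Psmg4, whose product pairs with that of Psmg3, had an unchanged region of 949 bp. Psmg1 and Psmg2, the other pair, had unchanged regions of 1008 bp and 1658 bp. The predicted gene Gm26938, on the same strand as Psmg3, also had a TSS in the Psmg3 region.

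Psmd5, Psmd9 and Psmd10 encode chaperones of the base of the cap, and each fell into a different class. Psmd5 was at an H3K27ac UP region of 3133 bp (chr2:34868958-34872090), which held the TSSs of 2 of its 5 transcripts, the protein-coding one included. A second region of Psmd5, unchanged and 2596 bp wide, held the TSS of 1 processed transcript and that of Cutal on the opposite strand. Psmd9 had an unchanged region of 2097 bp. Psmd10, which encodes gankyrin, was at an H3K27ac DOWN region of 2024 bp (chrX:140955161-140957184) that held the TSSs of both its transcripts, and Atg4a, an autophagy gene, started in the same region on the opposite strand. With 7 assembly genes, the share at UP regions was 25.0% for the Psmg genes alone and 16.7% (1 of 6, beside 21.1%) with only the 5′ end of each gene record taken as its TSS, and no test of the groups against each other was made.

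**Figure D2:**
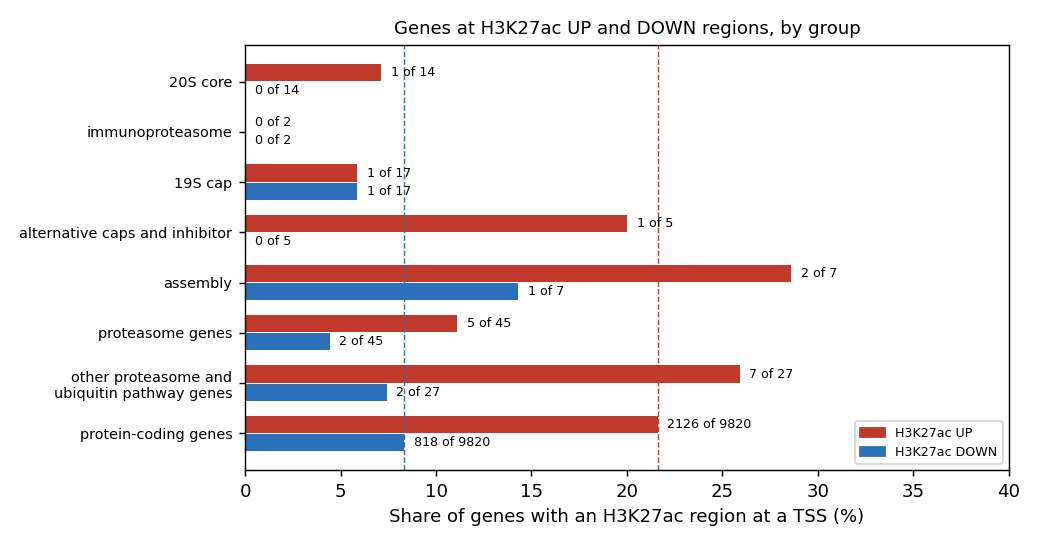
Bars show the share, in percent, of genes with a region at a TSS that were at H3K27ac UP (red) or DOWN (blue) regions, for each proteasome group, all proteasome genes, the other pathway genes and all protein-coding genes, with counts at the bar ends and dashed lines at the protein-coding shares of 21.6% and 8.33%. The core and cap lie below both lines with 1 UP gene each, and the assembly bars lie above both with 2 and 1 of 7 genes.

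The share of changed regions rises with region width among all genes, so width was examined next. The widest region at a TSS had a median of 1491 bp for the 45 proteasome genes, from 646 bp to 4263 bp, and of 1782 bp for the protein-coding genes. In quintiles of width, the protein-coding share at H3K27ac UP regions rose from 11.6% in the narrowest to 18.6%, 22.9%, 25.7% and 29.5% in the widest, and the share at H3K27ac DOWN regions from 1.17% to 2.45%, 4.32%, 8.81% and 24.9%. The proteasome genes numbered 3, 20, 12, 7 and 3 in these quintiles, so that most lay in the second and the third and few in the widest.

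Within the quintiles, Psme3 and Psmg3 were the changed genes among the 20 of the second, Psmd10 among the 12 of the third, Psmd5 and Psmd13 among the 7 of the fourth, and Psma5 and Psmc2 among the 3 of the fifth. Were the protein-coding shares weighted to the widths of the proteasome regions, they would be 21.1% for UP, or 9.49 of 45 genes, and 5.35% for DOWN, or 2.41 genes. The counts seen were 5 and 2. The H3K27ac UP count was thus below the width-weighted background as well, whereas the DOWN count lay next to it. The median width was 3133 bp for the 5 genes at UP regions and 1469 bp for the 38 at unchanged regions alone, and the ranges of both sets overlapped (1357 bp to 4263 bp and 646 bp to 4115 bp).

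**Figure D3:**
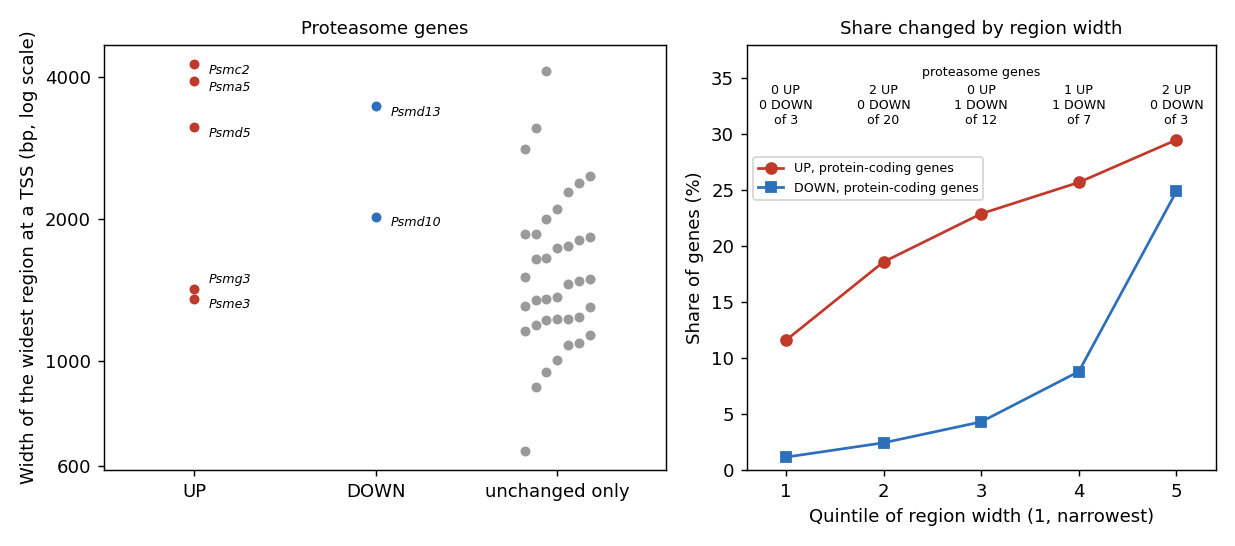
Left, each point is the width in bp, on a log scale, of the widest region at a TSS of a proteasome gene, by class. Right, lines show the share of protein-coding genes at H3K27ac UP (red) and DOWN (blue) regions by quintile of width, with the proteasome counts written above. The UP and unchanged points overlap, both lines rise with width, and 20 of the 45 proteasome genes are in the second quintile.

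Some proteasome genes shared their region with a neighbour. The region of 13 of the 45 genes (28.9%) also held a TSS of another protein-coding gene, beside 24.0% of the protein-coding genes, and 12 of these 13 regions held a gene on the opposite strand. Of the changed genes, Psmc2, Psmg3, Psmd10 and Psmd13 shared their changed region with a coding gene, and Psmd5 shared its unchanged one. Without the genes whose region was shared in this way, 2 of 32, Psma5 and Psme3, were at H3K27ac UP regions (6.25%) and 0 at DOWN regions. Both DOWN regions held a start of another coding gene, so the 0 follows from leaving such genes out. The shares of protein-coding genes with unshared regions were not computed, so these values have no background. Psmd5 was left out through its unchanged region, although no other coding gene started in its UP region.

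The wider surroundings were then examined. Within 50 kb of a TSS, and with the region at the TSS included, 20 of the 45 genes with a region (44.4%) had more H3K27ac UP than DOWN regions, beside 42.1% of the protein-coding genes with a region. More DOWN than UP regions were found for 6 (13.3%, beside 18.6%), as many of each for 4, and 0 of either for 15 (33.3%, beside 31.4%). These differences were not tested. Psmd5 had the most UP regions in this distance, 4. The gap between the gene records of Psmd5 and Hspa5, which encodes the ER chaperone BiP, was 72186 bp. Hspa5 thus lay beyond 50 kb, and a relation of the genes was not tested. Psmd10 had its own DOWN region and no UP region.

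Of the 38 genes with unchanged regions alone, 4 had an H3K27ac UP region within 5 kb of a TSS (10.5%, beside 6.56% of the protein-coding genes with unchanged regions alone). The gap was 790 bp for Psmd1, which encodes the scaffold subunit of the cap, 1087 bp for Psmb3, 3702 bp for Psmc6 and 4670 bp for Psma6. An H3K27ac DOWN region within 5 kb was found for 2 (5.26%, beside 3.87%), Psmb6 at 3685 bp and Psmd1 at 4780 bp. Psmd1 therefore had changed regions of both classes within 5 kb of a TSS. These gaps run from the nearest TSS of a gene, which need not lie in its unchanged region. For Psmd1, that region held 7 of 9 transcript starts.

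Genes without a Psm symbol that act in or around the proteasome gave a comparison from a fixed list of 29 genes. By symbol, 28 of them were found, and 27 had a TSS in a region. Of these, 7 were at H3K27ac UP regions (25.9%) and 2 at DOWN regions (7.41%), close to the background of 21.6% and 8.33%. The median width of their regions was 3246 bp, and the protein-coding shares weighted to their widths were 25.1% and 13.3%. Nfe2l1 had 2 H3K27ac UP regions of 4373 bp and 4925 bp, each with 6 of its 12 transcript starts. Ddi2, whose product cleaves NFE2L1, had one of 16846 bp. Akirin2, whose product carries proteasomes into the nucleus, had one of 10187 bp.

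The other genes of the list at UP regions were Adrm1, a ubiquitin receptor of the cap (3929 bp), Uchl5, the deubiquitinase that binds it (466 bp), Zfand2a, which encodes a proteasome-associated zinc finger protein (7674 bp), and Uba1, the main ubiquitin-activating enzyme, at 1 of its 2 regions (547 bp). Ngly1, which encodes the glycanase that processes NFE2L1, Vcp, which encodes the ATPase that extracts proteins from the ER membrane, and Pomp, the maturation factor of the core, had unchanged regions. Nfe2l2, a relative of Nfe2l1 and the main factor of the oxidative stress response, was at an H3K27ac DOWN region of 10932 bp. Ubqln4, a ubiquitin shuttle, had 1 DOWN region of 703 bp at 1 of its 5 transcript starts and an unchanged one at 3 others. The UP regions of Uchl5 and Uba1 likewise held only 2 of 8 and 1 of 6 transcript starts.

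Lastly, the promoter sequences were searched for words of factors known from proteasome genes or from ERS. RefSeq promoters were matched by symbol for 40 of the 48 genes, the others being Psma8, Psmb1, Psmb2, Psmb7, Psmc3, Psmd3, Psmd7 and Psmg2. In 36 of the 40 the start lay in a region of the gene, as it did for 7138 protein-coding genes, which served as the background. Each of 9 words was sought on both strands, and a match is a description of the letters, not a binding site. Positions are counted from the start, which is position 1.

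The word of NFE2L1 and related factors, the antioxidant response element core TGACNNNGC, was in 6 of 36 proteasome promoters (16.7%) and in 15.7% of all promoters. The 6 were Psmb5, Psmb6, Psmc6, Psmd9, Psmd12 and Psme4, all with unchanged regions, and none of the 7 changed promoters had it. The same split over all promoters was not computed, and 7 promoters are few for a word at this share. In Psmb5 the antioxidant word read TGACGTCGC from position -47. Words of ERS factors were rare. TGATGNAA, of ATF4 with CHOP, was in 1 proteasome promoter (2.78%, beside 2.07%), that of Psmd13, on the minus strand from position -247, which is the first capital stretch of the Psmd13 sequence above. TGACGTGG, the UPRE word of XBP1 and ATF6, was in 0 of 36 (0.813% of all promoters), as was the ERSE word, CCAAT and CCACG with 9 letters between them (0.182%).

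The ETS word CCGGAAGT was found in 9 of 36 proteasome promoters (25.0%), beside 10.4% of all promoters. They were those of Psma6, Psmc1, Psmc2, Psmd6, Psmd12, Psmd13, Psme3, Psme4 and Psmg3. Thus 4 of the 7 changed promoters held it, 3 at UP regions and 1 at a DOWN region, along with 5 of the 29 unchanged ones. This split, too, was not computed over all promoters, so these counts do not tie the word to a class. The ETS word began at position 2 in Psme3 and at position 5 in Psmg3, in Psmd13 at position -6 and in Psmc2 at -85. On the strand of the gene alone the share was 11.1%, beside 5.93%.

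The remaining words differed from the background by fewer percentage points. The NF-Y word CCAAT, which the ERSE word contains, was in 12 of 36 (33.3%, beside 37.9%), the GC box GGGCGG in 21 (58.3%, beside 67.9%), the NRF1 word GCATGCGC in 3 (8.33%, beside 6.29%) and the heat shock word GAANNTTC in 3 (8.33%, beside 5.53%). Psmd5 held 3 GC boxes and Psmd10 held 2, together with 3 NF-Y words, whereas none of the 9 words was in the Psma5 promoter. The median GC content was 59.0% for the proteasome promoters and 61.7% for all.

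**Figure D4:**
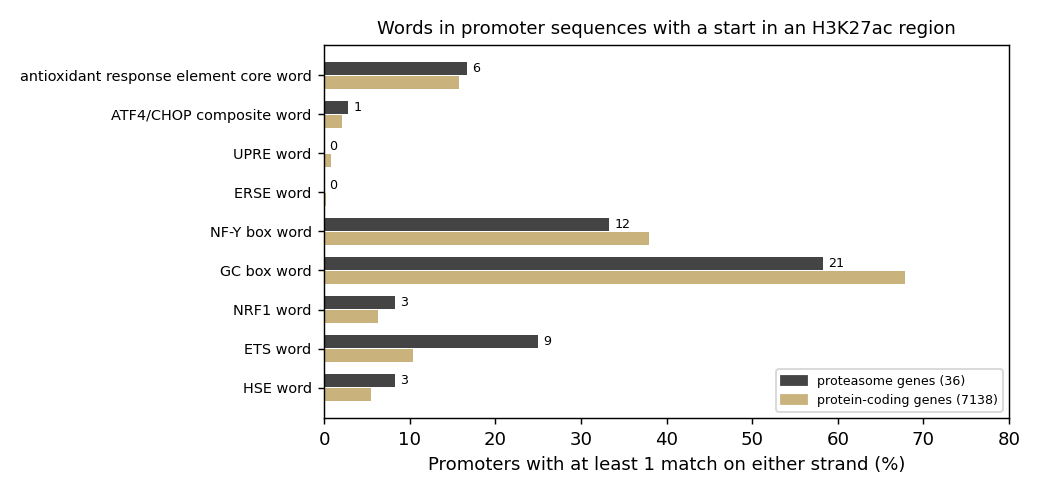
Bars show the share, in percent, of promoters from 250 bp before to 50 bp after the start with at least 1 match of each word on either strand, for 36 proteasome promoters (dark, with the number of genes at the bar end) and 7138 protein-coding promoters (light). The ETS word is at 25.0% beside 10.4%, and the antioxidant response element core is at 16.7% beside 15.7%.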

How the data were processed

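H3K27ac ChIP-seq was performed by the authors on 3 DMSO and 3 thapsigargin libraries with 1 input each. Per the labels, reads were processed with Bowtie and MACS2, and per the study's methods duplicates and blacklisted reads were removed, broad peaks were called on all libraries pooled with inputs as control, and csaw compared bins after loess normalization in a fit paired by experiment. Bins overlapping a peak were merged, and a region with FDR at or under 0.05 was UP where its UP bins numbered at least 2 for each DOWN bin, and DOWN where they numbered 0.5 or fewer. The authors discarded regions in between. The deposited BED files hold region positions in bp and a class, which are not a score, count or signal, and the depth is unknown. Since bins were pooled into 1 region, a class says nothing of single starts in it.

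From these, GENCODE M21 TSSs of every transcript were overlapped with the regions in Python 3.11.15, where the TSS base had to lie inside. Promoters were read from a RefSeq table and checked against the genome with samtools 1.23.1, and figures were drawn with matplotlib 3.10.9. The counting steps were tested on simulated data. Genes named were those at UP or DOWN regions, those without a region, those with the 3 widest and 3 narrowest unchanged regions, catalytic, immunoproteasome and Psmg genes and those with several regions, and other pathway genes at changed regions with Nfe2l1. Psma2, Psmb3, Psmc6, Psmd1, Psmd9, Psmd12, Psmd14, Psme1, Psme2, Psme4, Psmf1, Pomp, Vcp, Ngly1 and Hspa5 were named after their values were seen. The members, groups, words and lists were chosen with earlier results of these data known. No p-value was computed. Alternatives covered other TSSs, distances, width limits, backgrounds, groupings and windows.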

Additional observations from a re-analysis of the deposited data

How the results depend on the processing

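Shares, counts, medians and word frequencies were recomputed under 94 combinations of a result with another setting, of which 87 stayed within the interval or fold set for the result and 7 did not. For a share, the limit was the 95% interval of the main value, which is wide for groups of few genes. A change of background alone leaves the proteasome counts as they were, so those combinations could not move. The count of 87 is thus no measure of robustness. With TSSs within 10 kb of a region, the share of 20S core genes at UP regions was 35.7% in place of 7.14%, beside 29.0% of protein-coding genes. Without genes that share a region with another coding gene, the DOWN share was 0% in place of 4.44% and the unchanged share was 93.8% in place of 86.7%. No protein-coding share was computed for that setting. The cause was not tested. Both DOWN regions are shared, so the DOWN share of 0% follows from leaving such genes out. The other 4 were word shares in a longer window or on the strand of the gene alone. The ETS share on the strand of the gene alone was among them, at 11.1% in place of 25.0%. The UP share ranged from 6.25% to 23.4% and was below the protein-coding share in every alternative that has one. The ETS share stayed above that of all promoters in each alternative run (27.8% beside 12.2% and 11.1% beside 5.93%).

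No paired analysis was possible because regions come without values for single libraries, and leaving out a replicate was likewise not run. The depth of the libraries is unknown here, and an unchanged class sets no limit on the size of a change. H3K27ac is not RNA, and no expression was measured in these files.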

Other observations

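Several genes with Psm symbols fell outside the naming rule. Psmc3ip, which encodes a recombination protein of meiosis, Psme2b and the pseudogenes Psmb5-ps, Psmb6-ps, Psmb6-ps2 and Psmb7-ps2 had no TSS in a region of any class.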
